A study of Mus musculus with 2 samples.

Results

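The 10 genes described here belong to the circadian clock and were taken by symbol from the 32285 genes counted in a single-cell RNA-seq study of the postnatal mouse lung. They fall into a *Dbp* arm of 7 genes (*Dbp*, *Tef*, *Hlf*, *Nr1d1*, *Nr1d2*, *Per2* and *Per3*) and an *Arntl* arm of 3 genes (*Arntl*, *Npas2* and *Cry1*), and all 10 were detected in both libraries. The study deleted *Hhip*, which encodes an inhibitor of hedgehog signaling, in cells that express the hedgehog target *Gli1*. Both mice were Gli1creERT/+: Hhipflox/flox, so that a tamoxifen-inducible Cre was expressed from the *Gli1* locus, and both were taken at postnatal day 14. The control mouse received oil and the *Gli1 HHIPCKO* mouse received tamoxifen as a newborn. Each library came from 1 mouse and held stromal cells (negative for CD31, CD45 and CD326) mixed with a smaller part of epithelial cells.

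The clock is a transcriptional feedback loop that runs in nearly every cell of the body. ARNTL (also called BMAL1) pairs with CLOCK or NPAS2 and activates genes through E-boxes, among them the period and cryptochrome genes, whose proteins repress that activation, and the genes for the PAR bZIP factors DBP, TEF and HLF, which bind D-boxes. The nuclear receptors NR1D1 and NR1D2 (REV-ERBα and REV-ERBβ) repress *Arntl*, *Npas2* and *Cry1* through ROR elements, so that over the day the transcripts of the *Dbp* arm and those of *Arntl* and *Npas2* peak at different hours. In the lung, rhythmic clock genes are known in both the airway epithelium and the stroma. The sources used here do not give the hour at which either mouse was taken. With 1 mouse per condition, the hour, the animal, the tamoxifen itself and the deletion cannot be told apart.

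The control library held 43291709 UMIs in 10999 barcodes and the *Gli1 HHIPCKO* library 52338969 UMIs in 12350 barcodes. After filtering, 10917 and 12115 cells were kept, with a median of 3537 and 3774 UMIs per cell. The libraries shared 193 barcode sequences, which was 1.75% of those in the control. Cells were grouped without the clock genes, and 11 classes with at least 50 cells in each library could be compared. They were alveolar myofibroblast-like (ALMF), ductal myofibroblast-like (DMF), alveolar fibroblast-like, adventitial fibroblast-like, peribronchial and airway smooth muscle-like, pericyte-like, mesothelial-like, AT2-like, ciliated-like, immune-like and red cell-like. Levels are UMIs per 1000000 UMIs of the class (CPM), and ratios are *Gli1 HHIPCKO* over control. The 95% intervals (exact Poisson for levels, exact binomial for ratios and shares) cover counting error only. For a mean over classes, the interval is symmetric and combines the widths of the class intervals, so it is approximate and not exact. There were no replicates, so no difference was tested and none has a replicate check.

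Some classes were held by different clusters in the libraries. In the DMF-like class, 94.4% of control cells lay in a cluster led by *Hhip*, *Aspn* and *Enpp2*, and 77.4% of *Gli1 HHIPCKO* cells lay in a cluster led by *Thbs2*, *Aspn* and *P4ha3*. A smaller DMF-like cluster with 7 control and 497 *Gli1 HHIPCKO* cells was led by *P4ha3* and *Socs3*, with the immediate early genes *Egr1* and *Junb* among its leading genes. In the AT2-like class, 88.3% of control cells lay in a cluster led by *Sftpc* and *Cxcl15*, and 75.0% of *Gli1 HHIPCKO* cells in a cluster led by *Lcn2*, a secreted defence protein. The immune-like cells were led by the B cell genes *Cd79a* and *Vpreb3*. The ciliated-like class was spread over several clusters, and the largest was a different one in each library.

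The deleted gene and the sex of the mice were examined first. In DMF-like cells, *Hhip* was counted at 1709 CPM in the control and 331 CPM in *Gli1 HHIPCKO*, for a log2 ratio of -2.37. *Hhip* was lower in all 11 classes, with log2 ratios from -2.46 in ciliated-like cells to -0.71 in ALMF-like cells. In the control, ciliated-like cells had 111 CPM and immune-like cells 131 CPM. These levels were near the 122 CPM of the red cell-like class, which is used below as background. The log2 ratio in immune-like cells was -1.89 as counted and -0.42 after thinning. The files do not show which exons of *Hhip* these UMIs come from. *Xist*, the RNA that coats the inactive X chromosome of females, had 0 UMIs in 9 of the 11 classes of the control, 9 UMIs in AT2-like cells and 1 UMI in ciliated-like cells. In *Gli1 HHIPCKO* it stood at 122 CPM in AT2-like cells and up to 513 CPM in alveolar fibroblast-like cells. The mice therefore differed in *Xist* as well as in treatment, and sex and condition cannot be told apart.

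The *Dbp* arm as a whole was higher in *Gli1 HHIPCKO* in all 11 classes, whereas the *Arntl* arm had no common direction. The mean log2 ratio of the *Dbp* arm over the classes was 0.79 (0.73 to 0.86), a ratio of 1.73, and it ran from 0.39 in ciliated-like cells to 1.31 in red cell-like cells with every interval above 0. Without the red cell-like class the mean was 0.74. The size of the red cell-like value depended on the processing. It was 2.03 after thinning, 1.90 without high-scoring doublets and 1.81 for the mean over cells. When centred on the median of all genes tested in the class, it was 0.79. The mean log2 ratio of the *Arntl* arm was -0.00 (-0.15 to 0.14). In the 4 largest classes by UMIs the arm values lay as follows. In AT2-like cells the *Dbp* arm was counted at 162 CPM in the control and 293 CPM in *Gli1 HHIPCKO*, and the *Arntl* arm at 40.2 and 34.4 CPM. In DMF-like cells the *Dbp* arm stood at 507 and 774 CPM and the *Arntl* arm at 77.0 and 55.3 CPM. The *Dbp* arm was thus above the control in both the epithelium and the stroma, and in these 2 classes the *Arntl* arm lay below it. In alveolar fibroblast-like cells the *Dbp* arm stood at 165 CPM in the control and 353 CPM in *Gli1 HHIPCKO*, and in adventitial fibroblast-like cells at 226 and 455 CPM. The *Arntl* arm had log2 ratios of -0.12 (-0.42 to 0.18) and -0.20 (-0.48 to 0.07) there, and both intervals held 0.

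Counts and rankings of single-gene ratios cover the pairs with at least 50 UMIs. Of 77 pairs of *Dbp* arm gene and class, 60 had at least 50 UMIs over both libraries, and in all 60 of these the ratio was above 1. At least 2-fold higher were 21 of the 60 pairs, against 2.65% of the 85093 gene and class pairs counted by the same rule over all genes, and none was 2-fold lower. The red cell-like class, which is used below as background, held 2 of the 60 pairs, and without it 19 pairs were at least 2-fold higher. The 2.65% includes that class, where 648 of 4231 pairs over all genes were at least 2-fold higher. The share over all genes without it is not given here. Where the cells were averaged one by one or thinned, the exceptions were *Nr1d1* in ciliated-like cells, at -0.30 with the mean over cells, and *Nr1d2* in ciliated-like cells and *Per2* in ALMF-like cells, at -1.11 and -0.24 after thinning. Below the minimum, *Nr1d1* in immune-like cells was at -0.48 from 14 and 5 UMIs. Of 33 pairs of *Arntl* arm gene and class, 19 reached the minimum and 2 of them were at least 2-fold lower, against 1.56% of all pairs. Both were *Npas2*, in DMF-like and in AT2-like cells. Each of the 7 *Dbp* arm genes was higher in every class in which it reached the minimum, which held for 7.14% of the 8948 genes that did so in at least 5 classes. Neither *Arntl* nor *Cry1* was lower in every such class, against 5.03% of genes, and *Npas2* reached the minimum in 4 classes only. The median log2 ratio was 0.73 over the *Dbp* arm pairs and -0.07 over the *Arntl* arm pairs, beside 0.02 over all pairs. The genes were chosen with earlier results of these data known, so the shares over all genes describe and do not test the arms.

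**Figure D1:**
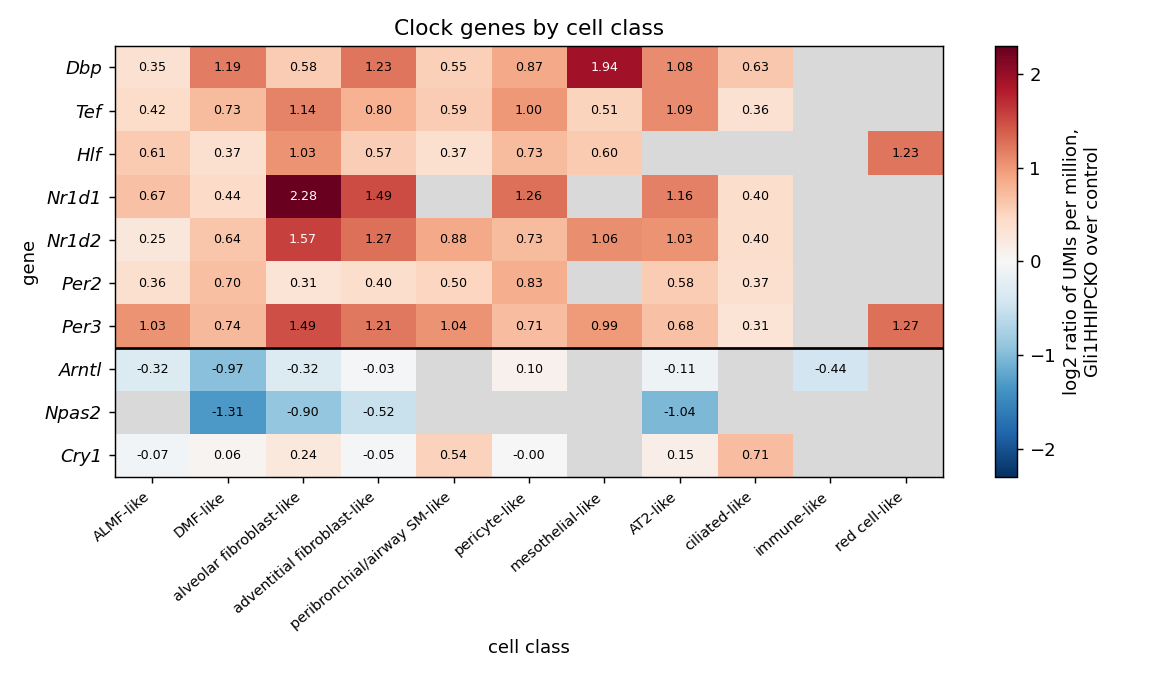
Log2 ratio of CPM, *Gli1 HHIPCKO* over control, for the 10 clock genes (rows) in the 11 cell classes (columns), 1 library per condition, with grey where a gene had fewer than 50 UMIs over both libraries. The line parts the *Dbp* arm, where all 60 values are above 0, from the *Arntl* arm, where 13 of 19 are below 0.

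*Dbp* encodes a PAR bZIP activator whose transcript is among those with the widest daily swing. In AT2-like cells *Dbp* was counted at 26.9 CPM (24.3 to 29.7) in the control and 57.0 CPM (53.5 to 60.8) in *Gli1 HHIPCKO*. In DMF-like cells it was counted at 33.0 CPM (28.2 to 38.4) and 75.0 CPM (68.8 to 81.6). In both classes the intervals were far apart, with log2 ratios of 1.08 and 1.19. Adventitial fibroblast-like cells had 27.3 and 64.1 CPM, and mesothelial-like cells had 12.0 and 45.9 CPM from 13 and 40 UMIs. Those 4 classes were the ones with at least 2-fold more *Dbp*. In ALMF-like cells, with 33.0 and 42.1 CPM, and in peribronchial and airway smooth muscle-like cells, with 35.1 and 51.3 CPM, the interval of the ratio reached below 0 on the log2 scale. In the control the level ran from 8.64 CPM in red cell-like to 53.1 CPM in ciliated-like cells, and the intervals of neighbours in that order overlapped throughout.

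*Tef*, the PAR bZIP factor first described in thyrotropes, was counted at 17.9 CPM (15.8 to 20.2) in control AT2-like cells and 38.0 CPM (35.1 to 41.1) in *Gli1 HHIPCKO* AT2-like cells. In alveolar fibroblast-like cells it was counted at 30.1 CPM (22.3 to 39.6) and 66.4 CPM (60.5 to 72.7). Among the classes with at least 50 UMIs, these were the 2 past 2-fold, with log2 ratios of 1.09 and 1.14. In pericyte-like cells the log2 ratio was 1.00 (0.46 to 1.57), just short of that size. Among the same classes its lowest ratio was in ciliated-like cells, at 0.36 (-0.16 to 0.87). Ciliated-like cells also had the highest level of *Tef* in both libraries, 69.9 and 89.6 CPM, with intervals that overlapped that of the next class. The lowest level was in red cell-like cells, 5.76 and 19.2 CPM from 8 and 29 UMIs, and in the control AT2-like cells stood next above them, apart from the classes on either side.

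*Hlf*, the remaining PAR bZIP gene, differed most between cell types. In the control it stood at 264 CPM (247 to 282) in ALMF-like cells, 195 CPM (183 to 207) in DMF-like cells, 189 CPM (157 to 226) in peribronchial and airway smooth muscle-like cells and 103 CPM (85.0 to 124) in mesothelial-like cells. The intervals of the DMF-like and smooth muscle-like levels overlapped, and the other neighbours among these 4 were apart. AT2-like cells had 1.16 CPM, from 17 UMIs. The order of the leading 5 classes, which ended with pericyte-like cells, was the same in *Gli1 HHIPCKO*, where ALMF-like cells had 402 CPM (369 to 437), DMF-like cells 251 CPM (240 to 263) and AT2-like cells 1.55 CPM. *Hlf* was thus highest in the myofibroblast-like and smooth muscle-like cells of both mice. Its log2 ratio was 0.61 (0.45 to 0.76) in ALMF-like and 0.37 (0.25 to 0.48) in DMF-like cells, and it was past 2-fold in alveolar fibroblast-like cells, at 1.03. The 1.23 in red cell-like cells came from 18 and 46 UMIs in the class used below as background, and whether those UMIs come from red cells was not tested. Its interval was above 0 in all 8 classes that reached the minimum. The size depended on the processing, and the steps that altered the cells also altered the clusters. When high-scoring doublets were removed and the cells clustered anew, the ALMF-like class held 993 *Gli1 HHIPCKO* cells in place of 409 and its value was 0.23. With looser filters and new clusters the alveolar fibroblast-like value was 0.34. Where only the clustering differed, the ALMF-like and alveolar fibroblast-like values were 0.58 and 0.85 at resolution 0.5, and 0.36 and 0.97 with each library clustered on its own.

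*Nr1d1* and *Nr1d2* encode the repressors that act on the *Arntl* arm. *Nr1d1* was counted at 9.56 CPM (8.04 to 11.3) in control and 21.4 CPM (19.3 to 23.7) in *Gli1 HHIPCKO* AT2-like cells. In adventitial fibroblast-like cells it was counted at 13.2 CPM (9.55 to 17.8) and 37.2 CPM (30.6 to 44.7). The largest ratio among the pairs at the minimum was that of *Nr1d1* in alveolar fibroblast-like cells, with a log2 value of 2.28, but it rested on 6 UMIs in the control against 123, and its interval ran from 1.12 to 3.76. With looser cell filters, after which the cells were clustered anew and the class held 554 control cells in place of 482, it was 0.68. Pericyte-like cells were the fourth class past 2-fold, at 1.26 (0.44 to 2.18). In DMF-like cells, where *Nr1d1* was highest in both libraries, it stood at 36.9 and 50.2 CPM, for a log2 ratio of 0.44 (0.18 to 0.70). The interval of the ciliated-like level, next in order, overlapped that of the DMF-like level in both libraries.

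*Nr1d2* was at least 2-fold higher in 4 of 9 classes. In alveolar fibroblast-like cells it stood at 13.2 CPM, from 22 UMIs, in the control and 39.2 CPM (34.7 to 44.1) in *Gli1 HHIPCKO*. In adventitial fibroblast-like cells it stood at 22.7 and 54.6 CPM, and in AT2-like cells at 16.7 and 34.0 CPM. The fourth was the mesothelial-like class, at 25.8 and 53.9 CPM. Its smallest log2 ratio was in ALMF-like cells, at 0.25 (-0.10 to 0.59), the class with the highest control level, 65.2 CPM. In *Gli1 HHIPCKO* the highest level was in peribronchial and airway smooth muscle-like cells, 104 CPM, and in both libraries the intervals of neighbours in the order overlapped. As with *Dbp*, ALMF-like cells differed less between the libraries than the alveolar and adventitial fibroblast-like cells did; the difference between classes was not tested.

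The period proteins PER2 and PER3 join the repressor complex of the loop. *Per3* was past 2-fold in 5 of 10 classes and *Per2* in none of 8, but a difference between the genes was not tested, and their log2 ratios were 0.74 and 0.70 in DMF-like and 0.68 and 0.58 in AT2-like cells. *Per3* was counted at 65.0 CPM (61.0 to 69.3) in control and 104 CPM (99.0 to 109) in *Gli1 HHIPCKO* AT2-like cells, and at 104 CPM (95.4 to 113) and 174 CPM (165 to 184) in DMF-like cells. In alveolar fibroblast-like cells it was counted at 35.5 CPM (27.0 to 45.8) and 99.7 CPM (92.4 to 107). That last difference, for a log2 ratio of 1.49, was the largest for *Per3*, and the others past 2-fold were in red cell-like, adventitial fibroblast-like, peribronchial and airway smooth muscle-like and ALMF-like cells, between 1.27 and 1.03. DMF-like cells had the highest *Per3* level in both libraries, and in the control their interval was apart from that of the next class. *Per2* was counted at 24.7 CPM (22.2 to 27.4) and 36.8 CPM (34.0 to 39.8) in AT2-like cells, for a log2 ratio of 0.58 (0.39 to 0.77). Its log2 ratios lay between 0.31 and 0.83, and the interval was above 0 in DMF-like, pericyte-like and AT2-like cells. Ciliated-like cells had the highest *Per2* level in both libraries, 58.4 and 75.7 CPM, and in the control their interval overlapped that of the next class.

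In the *Arntl* arm the 3 genes did not show a common direction. *Arntl*, the activator of the loop, was counted at 34.8 CPM (29.8 to 40.3) in control and 17.8 CPM (14.8 to 21.1) in *Gli1 HHIPCKO* DMF-like cells, for a log2 ratio of -0.97 (-1.31 to -0.63). In AT2-like cells it was counted at 13.9 CPM (12.1 to 16.0) and 12.9 CPM (11.2 to 14.7). So the gene was lower in the DMF-like class as a whole, and in AT2-like cells no difference was detectable at this depth. The control and *Gli1 HHIPCKO* DMF-like cells lay mostly in different clusters, so a different mix of cells and a different level per cell cannot be told apart. In the *Thbs2*-led DMF-like cluster, with 92 control cells, the *Arntl* arm had a log2 ratio of 0.55 (-0.69 to 2.19) from 5 control UMIs. The log2 ratio was below 0 in 6 of 7 classes, and the DMF-like interval was the only one of the 7 that did not reach 0. The highest level of *Arntl* in both libraries was in the immune-like cells, 142 CPM (119 to 168) in the control and 104 CPM (77.5 to 138) in *Gli1 HHIPCKO*, and its interval was apart from that of the next class in both.

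*Npas2*, the partner that can stand in for CLOCK, was counted at 12.2 CPM (10.5 to 14.1) in control and 5.95 CPM (4.84 to 7.24) in *Gli1 HHIPCKO* AT2-like cells. In DMF-like cells it was counted at 10.0 CPM (7.46 to 13.2) and 4.03 CPM (2.70 to 5.79). In adventitial fibroblast-like cells, its highest class, it was counted at 28.2 CPM (22.8 to 34.6) and 19.7 CPM (15.1 to 25.4). The adventitial interval overlapped that of the next class in both libraries. In the 4 classes with 50 UMIs or more, alveolar fibroblast-like cells being the fourth, the log2 ratios lay between -1.31 and -0.52 and each interval was below 0. After thinning, the log2 ratio of *Npas2* in AT2-like cells was -0.49. The limit given for *Arntl* in the DMF-like class, a different mix of clusters in each library, holds for *Npas2* there too. *Cry1*, a cryptochrome that represses the loop and has both an E-box and ROR elements among its known control sites, stood at 14.1 and 15.6 CPM in AT2-like cells and at 32.2 and 33.5 CPM in DMF-like cells. Its log2 ratios in 8 classes ran from -0.07 to 0.71, and each interval held 0. Its control levels ran from 5.76 CPM in red cell-like to 35.7 CPM in ALMF-like cells, with overlapping intervals between neighbours.

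The odds of a *Dbp* arm UMI to an *Arntl* arm UMI do not depend on the totals used for scaling. In the control there were 4.03 *Dbp* arm UMIs for each *Arntl* arm UMI in AT2-like cells, and in *Gli1 HHIPCKO* 8.50. In DMF-like cells the odds were 6.59 and 14.0, and in adventitial fibroblast-like cells 3.01 and 6.99. The immune-like cells had the lowest odds, 0.789 and 1.61. The odds as counted were higher in *Gli1 HHIPCKO* in all 11 classes, with a mean log2 odds ratio of 0.80 (0.63 to 0.96), and the exact interval was above 0 in 7 of them. The intervals of the peribronchial and airway smooth muscle-like, mesothelial-like, ciliated-like and red cell-like cells reached below 0, and the smallest value was that of the mesothelial-like cells, 0.15 (-0.57 to 0.85). In these last the *Arntl* arm was itself higher, at 0.68 (0.01 to 1.36) from 35 and 45 UMIs. The direction of the odds turned there under other processing, with -0.71 after thinning and -0.08 without high-scoring doublets. It turned in ciliated-like cells too, with -0.07 after thinning, -0.24 for the mean over cells and -0.32 for the median of the members. In immune-like cells the log2 odds ratio of 1.03 kept its direction but not its size, with 0.28 for the mean over cells, where the *Dbp* arm was at 0.17, 0.67 without high-scoring doublets and 1.77 after thinning.

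**Figure D2:**
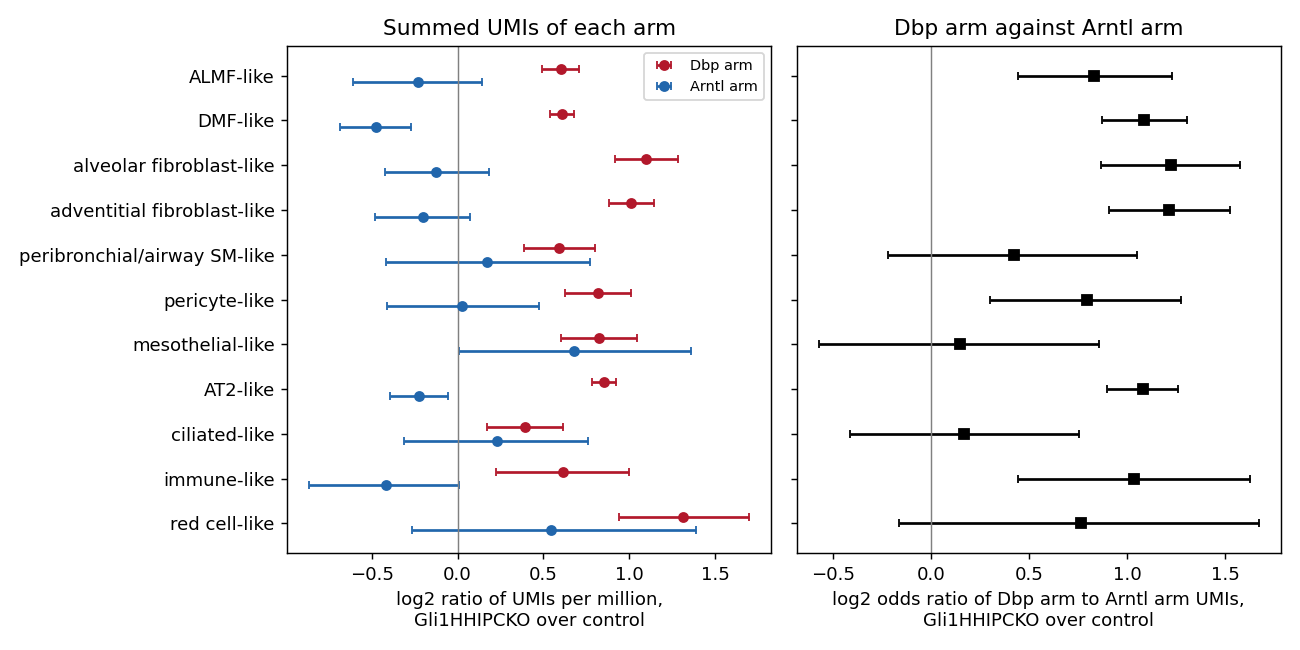
Left, log2 ratio of summed CPM of the *Dbp* arm (red) and the *Arntl* arm (blue) in each cell class, *Gli1 HHIPCKO* over control, 1 library per condition; right, log2 odds ratio of *Dbp* arm to *Arntl* arm UMIs. Bars are 95% exact intervals for counting error, and the values as counted lie above 0 for the *Dbp* arm, from 0.39, and for the odds, from 0.15, although the odds of mesothelial-like and ciliated-like cells lie below 0 after thinning.

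Because clusters held the classes unequally, the arms were also compared within single clusters, a choice made after the data were seen. In the 14 named clusters with at least 50 cells of each library, the *Dbp* arm was higher in *Gli1 HHIPCKO* in all 14. The log2 ratios lay between 0.59 and 1.49, with every interval above 0. Some unnamed clusters also had at least 50 cells of each library, and they were not compared one by one. Within the *Sftpc*-led AT2-like cluster, with 2585 control and 701 *Gli1 HHIPCKO* cells, it was 0.68 (0.56 to 0.79). Within the *Lcn2*-led AT2-like cluster, with 341 and 2098 cells, it was 0.78 (0.62 to 0.94). The *Dbp* arm was thus above the control inside each AT2-like cluster, where the whole class had 0.85. In the *Sftpc*-led cluster the *Arntl* arm had a log2 ratio of -0.47 (-0.80 to -0.16), the only one of the 14 with its interval below 0. In the *Thbs2*-led DMF-like cluster, with 92 control cells, the *Dbp* arm had a log2 ratio of 0.79 (0.43 to 1.17), and the *Arntl* arm had 0.55 (-0.69 to 2.19) from 5 control UMIs, above 0 where the whole class had -0.48. The log2 odds ratio there was 0.24 (-1.45 to 1.55). Over these 14 named clusters, the *Arntl* arm was below 0 in 8, and the interval of the odds was above 0 in 7. The *Hhip*-led DMF-like cluster held 29 *Gli1 HHIPCKO* cells, too few for the comparison.

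Per cell, the transcripts were sparse. *Dbp* had a UMI in 12.1% (10.9 to 13.3) of control and 26.4% (24.7 to 28.0) of *Gli1 HHIPCKO* AT2-like cells, at median depths of 4839.5 and 5744 UMIs. When each cell was thinned to 2000 UMIs and the 86 control and 48 *Gli1 HHIPCKO* AT2-like cells below that depth were left out, the shares were 5.28% (4.49 to 6.17) and 10.8% (9.66 to 12.0). In thinned DMF-like cells they were 6.06% (4.86 to 7.45) and 14.8% (13.2 to 16.5), from 8.55% and 18.1% as counted. The share of cells with *Dbp* was thus higher in *Gli1 HHIPCKO* at equal depth in both classes. Red cell-like cells served as the background, and after thinning 0.862% (0.105 to 3.08) and 4.46% (2.16 to 8.06) of them held a *Dbp* UMI, from 4.49% and 7.95% as counted at median depths of 5058 and 5485. For *Hlf*, 0.282% and 0.400% of thinned AT2-like cells held a UMI, which is at or below the shares in red cell-like cells, 1.29% and 6.25%, and is read as background.

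Markers of other cell types were counted in some classes more than in others. The 7 AT2 markers summed to 327921 CPM in the control and 289497 CPM in *Gli1 HHIPCKO* AT2-like cells, and to 44915 and 61426 CPM in immune-like, 44948 and 49500 CPM in ciliated-like, and 32189 and 41752 CPM in red cell-like cells, with *Sftpc* the most abundant in each. In ALMF-like cells the same markers summed to 2226 and 1374 CPM, and in DMF-like cells to 3001 and 1859 CPM, lower in *Gli1 HHIPCKO* in both. In peribronchial and airway smooth muscle-like cells they summed to 8037 and 1762 CPM. In that class its own 8 markers, led by *Actc1*, summed to 16589 CPM in the control and 5353 CPM in *Gli1 HHIPCKO*, and the 9 DMF markers to 5193 and 6573 CPM. Its ratios for the clock genes may thus compare unlike cells, and a different mix of cells and a different level per cell cannot be told apart. The AT2 markers were thus higher in *Gli1 HHIPCKO* in immune-like, ciliated-like and red cell-like cells and lower in the stromal classes named. The 10 alveolar fibroblast markers, led by *Npnt*, summed to 447 and 1627 CPM in immune-like and to 335 and 1014 CPM in red cell-like cells, where the *Dbp* arm stood at 137 and 209 CPM and at 58.3 and 145 CPM. The 5 red cell markers, led by *Hbb-bs*, summed to 634 and 9356 CPM in pericyte-like cells, to 368 and 5091 CPM in peribronchial and airway smooth muscle-like cells and to 573 and 5744 CPM in immune-like cells. They were higher in *Gli1 HHIPCKO* in each class other than the red cell-like one. The 6 club cell markers, led by *Scgb1a1*, summed to 19336 and 2799 CPM in ciliated-like cells and to 4384 and 148 CPM in immune-like cells. The part of these transcripts in the clock values was not tested. *Hlf* made up 4.14% (2.43 to 6.54) of the *Hlf* and *Dbp* UMIs in control AT2-like cells and 88.9% (86.8 to 90.8) in control ALMF-like cells. In *Gli1 HHIPCKO* these shares were 2.64% and 90.5%. The red cell-like class stood apart in another way, since its median log2 ratio over all genes tested was 0.52, whereas the other 10 classes lay between -0.07 and 0.05. Haemoglobin and the other red cell markers made up 580681 CPM of that class in the control and 452760 CPM in *Gli1 HHIPCKO*, so the *Dbp* arm log2 ratio of 1.31 in that class is to be read against a median of 0.52 on the same scale.

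Of 16 other clock genes, 13 reached the minimum in at least 1 class and gave 99 pairs, with a median log2 ratio of 0.23. Of these pairs 8 were at least 2-fold higher and 1 at least 2-fold lower, against 2.65% and 1.56% of all pairs. The red cell-like class, where the median over all genes tested was 0.52, held 3 of the 8. *Ciart*, which encodes a repressor of the CLOCK and ARNTL pair, was counted at 2.12 CPM in the control and 13.6 CPM in *Gli1 HHIPCKO* AT2-like cells, for a log2 ratio of 2.69 (2.14 to 3.28) from 31 and 229 UMIs. In DMF-like cells it had 1 UMI in the control and 62 in *Gli1 HHIPCKO*, with an interval from 2.92 to 10.78 on the log2 scale. The *Ciart* values were thus larger than those of any *Dbp* arm gene in these 2 classes. *Per1*, a period gene that glucocorticoids also induce, was higher in all 11 classes as counted, though at -0.02 in mesothelial-like cells after thinning, and it stood at 72.3 and 133 CPM in AT2-like cells and 289 and 362 CPM in DMF-like cells. *Cry2*, the second cryptochrome, was likewise higher in every class tested, at 48.4 and 74.1 CPM in AT2-like cells, for a log2 ratio of 0.62 (0.48 to 0.75). *Nfil3*, a D-box repressor that acts against the PAR bZIP factors, had log2 ratios of -0.40 (-0.66 to -0.15) in DMF-like and -0.97 (-1.52 to -0.44) in peribronchial and airway smooth muscle-like cells. Its intervals held 0 in the other classes tested, with -0.02 (-0.27 to 0.23) in AT2-like and -0.03 (-0.46 to 0.42) in alveolar fibroblast-like cells, and in AT2-like cells it was 0.04 for the mean over cells. *Clock* itself had log2 ratios of 0.12 (-0.09 to 0.33) in AT2-like and -0.21 (-0.42 to -0.00) in DMF-like cells.

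The 6 clock output genes gave 48 pairs, with 5 at least 2-fold higher and 1 at least 2-fold lower, against 2.65% and 1.56% of all pairs. Their median log2 ratio was 0.05, beside 0.02 over all pairs. *Nfe2l2*, the one with the most UMIs, encodes a regulator of antioxidant genes and stood at 149 and 153 CPM in AT2-like cells and at 102 and 91.3 CPM in DMF-like cells. Chosen after their values were seen, *Wee1* and *Nampt* were higher as counted in every class tested and *Leo1* was lower. *Wee1*, which encodes a cell cycle kinase, stood at 15.2 and 29.4 CPM in AT2-like cells. It kept its direction with other totals, centring, averaging and thinning. The other 2 did not keep theirs throughout. *Nampt* was at -0.95 in ALMF-like cells after thinning, which also left out the shallower cells. With the mean over cells, *Leo1* was at 0.05 in alveolar fibroblast-like and 0.13 in ciliated-like cells.

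Other genes that respond to the state of the animal or the tissue also differed between the libraries, and their part in the clock values was not tested. The counts below stand beside 2.65% of all gene and class pairs at least 2-fold higher and 1.56% at least 2-fold lower. The 8 glucocorticoid-induced genes, which include *Per1*, gave 28 of 81 pairs at least 2-fold higher and 1 lower, with a median log2 ratio of 0.74. *Errfi1*, the one with the most UMIs, encodes an inhibitor of the EGF receptor, and its log2 ratio was 0.87 (0.83 to 0.91) in AT2-like and 0.58 (0.50 to 0.66) in DMF-like cells. *Fkbp5*, a co-chaperone of the glucocorticoid receptor chosen after its values were seen, was counted at 14.9 and 92.3 CPM in DMF-like cells. The 8 temperature-responsive genes gave 10 of 77 pairs at least 2-fold higher and 1 lower, with a median of 0.06. Most abundant among them was the heat shock cognate *Hspa8*, which was lower in all 11 classes, at -0.58 (-0.62 to -0.55) in AT2-like cells, although in red cell-like cells its interval reached above 0 and its value was 0.11 after thinning and 0.07 for the mean over cells. *Cirbp*, an RNA-binding protein induced by cooling and also chosen after its values were seen, was higher in all 11 classes, at 1.04 (0.97 to 1.12) in AT2-like and 1.18 (1.06 to 1.30) in DMF-like cells. The 8 immediate early genes gave 11 of 88 pairs at least 2-fold higher and 5 lower, with a median of 0.49. *Jun*, with the most UMIs of these, encodes a subunit of AP-1 and had log2 ratios of 0.41 (0.38 to 0.44) in AT2-like and 0.47 (0.43 to 0.51) in DMF-like cells.

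Among 2924 genes outside these lists with at least 50 UMIs in each of the 11 classes, those whose log2 ratios lay nearest to the *Dbp* arm included *Rps27*, *Spop*, *Bnip3* and *Ddx3x*, with root mean square differences from 0.20 to 0.24. Their median log2 ratios over the classes were 0.58 for *Rps27*, 0.90 for *Spop*, 0.65 for *Bnip3* and 0.81 for *Ddx3x*. Nearest to the *Arntl* arm were *Ubqln1*, *Rchy1*, *Phax*, *Arf1* and *Skp1a*, with differences from 0.19 to 0.22 and medians between -0.09 and -0.04. This is likeness over 11 classes of 1 pair of libraries and no more.

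On GRCm38, *Dbp* (ENSMUSG00000059824) lies at chr7:45705088-45710203 and *Arntl* (ENSMUSG00000055116) at chr7:113207465-113314126, both on the plus strand. *Nr1d1* (ENSMUSG00000020889) lies on the minus strand at chr11:98767932-98775333 and overlaps *Thra* on the other strand, and *Dbp* overlaps *Sphk2* in the same way. *Per3* (ENSMUSG00000028957), at chr4:151003652-151044665, overlaps *Camta1* on its own strand, so UMIs in the shared stretch could be assigned to either gene. *Hlf* (ENSMUSG00000003949) at chr11:90336536-90390895, *Nr1d2* (ENSMUSG00000021775) at chr14:18204054-18239127, *Per2* (ENSMUSG00000055866) at chr1:91415982-91459324 and *Cry1* (ENSMUSG00000020038) at chr10:85131700-85185064 are on the minus strand, and overlap no other annotated gene. *Tef* (ENSMUSG00000022389) at chr15:81802421-81826863 and *Npas2* (ENSMUSG00000026077) at chr1:39193731-39363236 are on the plus strand, and they and *Arntl* overlap only antisense or pseudogene entries.

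Since the genes of each arm are known to share control sites, their promoters were searched on both strands for the E-box CACGTG, the variant CACGTT, the D-box TTATGNAA and the ROR element cores TAGGTCA and TGGGTCA. RefSeq promoter windows of 300 bases on GRCm38.p6 were given for 9 of the 10 genes, *Per2* being the one without. CACGTG was present in windows of *Tef* and *Cry1* and in 7.15% of 32851 promoters, CACGTT, read as AACGTG where it lies on the other strand, in *Nr1d1* and *Cry1* and in 4.68%, TTATGNAA in *Per3* and in 3.38%, and TAGGTCA in *Arntl* and in 2.61%. TGGGTCA, which 3.98% of promoters hold, was in none of the 9. *Tef* and *Arntl* had 2 entries each. CACGTG was in both of *Tef*, and TAGGTCA in the second of *Arntl* only. The first *Tef* entry (chr15:81802423-81802722, plus strand) is left out for brevity, and the other windows with a match are shown for the second *Tef* entry (chr15:81811164-81811463, plus strand), *Nr1d1* (chr11:98775328-98775627, minus strand), *Per3* (chr4:151044616-151044915, minus strand), the second *Arntl* entry (chr7:113207261-113207560, plus strand) and *Cry1* (chr10:85185005-85185304, minus strand), 5′ to 3′ along the gene with the motif letters in capitals.
Tef: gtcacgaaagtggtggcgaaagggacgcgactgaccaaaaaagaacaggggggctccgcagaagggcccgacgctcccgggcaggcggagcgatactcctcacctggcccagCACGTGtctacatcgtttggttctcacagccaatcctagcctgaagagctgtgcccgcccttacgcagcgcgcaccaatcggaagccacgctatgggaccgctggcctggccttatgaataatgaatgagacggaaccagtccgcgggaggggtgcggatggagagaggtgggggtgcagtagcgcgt
Nr1d1: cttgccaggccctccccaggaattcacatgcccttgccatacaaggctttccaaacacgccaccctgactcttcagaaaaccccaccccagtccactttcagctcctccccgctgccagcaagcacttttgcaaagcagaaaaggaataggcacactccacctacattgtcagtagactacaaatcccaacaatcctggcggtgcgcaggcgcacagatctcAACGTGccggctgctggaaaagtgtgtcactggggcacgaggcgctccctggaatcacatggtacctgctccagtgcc
Per3: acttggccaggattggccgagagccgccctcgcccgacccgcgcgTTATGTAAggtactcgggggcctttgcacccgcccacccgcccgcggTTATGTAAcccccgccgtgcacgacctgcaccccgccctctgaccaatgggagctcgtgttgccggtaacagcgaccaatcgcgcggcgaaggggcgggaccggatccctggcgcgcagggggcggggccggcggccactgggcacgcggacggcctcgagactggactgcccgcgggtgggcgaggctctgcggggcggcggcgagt
Arntl: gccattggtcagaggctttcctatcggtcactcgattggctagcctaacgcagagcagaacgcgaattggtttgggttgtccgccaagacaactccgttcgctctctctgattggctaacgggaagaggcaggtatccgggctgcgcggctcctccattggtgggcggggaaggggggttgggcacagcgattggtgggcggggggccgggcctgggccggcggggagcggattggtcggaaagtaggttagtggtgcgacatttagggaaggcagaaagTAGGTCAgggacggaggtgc
Cry1: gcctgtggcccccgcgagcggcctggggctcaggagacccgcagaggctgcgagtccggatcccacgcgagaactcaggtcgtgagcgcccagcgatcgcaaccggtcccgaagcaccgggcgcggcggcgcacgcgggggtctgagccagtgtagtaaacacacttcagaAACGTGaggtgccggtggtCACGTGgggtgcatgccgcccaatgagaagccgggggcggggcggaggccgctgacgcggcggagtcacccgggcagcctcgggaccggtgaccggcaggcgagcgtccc
*Per3* held 2 D-box matches of the same letters, and *Cry1* held both E-box forms. A match shows only that the letters are present in the window.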

How the data were processed

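Lungs of 1 control and 1 *Gli1 HHIPCKO* mouse were profiled by 10x single-cell RNA-seq. The authors deposited filtered UMI counts per gene and barcode, aligned to mm10. Per the file headers they were made with CellRanger 6.1.0, which the methods also name, while the submitters' processing notes list Cell Ranger 3.1.0. The design text names a 5′ kit and the sample labels another one. Cells with fewer than 200 or more than 6000 genes or with over 10% mitochondrial UMIs were removed, doublets stayed in, and Leiden clustering (leidenalg 0.10.2, 2000 variable genes, 30 principal components, resolution 1) was run on both libraries together without the clock genes; *Hhip* took part. Clusters were named from marker lists by a scoring rule set after clusters were seen; the fibroblast markers come largely from these libraries. No cluster was named vascular smooth muscle or AT1, with 16.5% of control and 13.9% of *Gli1 HHIPCKO* cells in unnamed clusters. UMIs were summed per class and library, and exact intervals came from scipy 1.17.1; the ratio calculation was tested on simulated data. Alternatives changed the filters, doublets, totals, averaging, clustering, depth and count minimum. Members and lists were chosen with earlier results of these data known. Besides the 10 genes, values are given for other clock genes, for the gene with the most UMIs in each other list, for genes among the 5 nearest to each arm, for *Hhip* and *Xist*, and for *Wee1*, *Nampt*, *Leo1*, *Fkbp5* and *Cirbp*, chosen after their values were seen.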

Additional observations from a re-analysis of the deposited data

Results flagged for a closer look

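The cells outside the 11 classes compared were not part of the results above, and the *Dbp* arm was above the control in 3 of these 4 groups with intervals above 0. In the unnamed clusters, with 1797 control and 1688 *Gli1 HHIPCKO* cells, its log2 ratio was 0.72 (0.64 to 0.80), and that of the *Arntl* arm was -0.58 (-0.77 to -0.39). The mix of these clusters differed between the libraries, with 188 and 61 cells in one nearest to immune cells, 103 and 30 in another, and 174 and 410 in one nearest to alveolar fibroblasts, so a different mix and a different level per cell cannot be told apart. In the endothelial-like cells, 67 and 46 in number, the *Dbp* arm had a log2 ratio of 1.45 (0.65 to 2.29). In the club-like cells, 34 and 13 in number, it was 2.04 (1.26 to 2.79) from 44 and 24 UMIs, and the *Arntl* arm was higher too, at 1.46 (-0.65 to 3.21) from 11 and 4 UMIs, with a log2 odds ratio of 0.58 (-1.37 to 2.83). In the Schwann-like cells, 26 and 25 in number, the *Dbp* arm was at 0.22 (-0.62 to 1.07), and no difference was detectable at this depth. The *Arntl* arm was at -0.90 (-3.44 to 1.16) in the endothelial-like and -0.17 (-3.07 to 2.73) in the Schwann-like cells, from at most 8 UMIs per library.

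A pair of other clock genes had intervals on opposite sides of 0 in different classes, and these differences between classes were not tested. *Rora*, which encodes an activator that binds ROR elements, had a log2 ratio of 1.07 (0.36 to 1.83) in red cell-like cells, where the median over all genes was 0.52, and of -1.23 (-2.33 to -0.25) in ciliated-like cells. *Clock* had 0.41 (0.06 to 0.78) in alveolar fibroblast-like cells and -0.21 (-0.42 to -0.00) in DMF-like cells.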

How the results depend on the processing

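The arm values and the counts were recomputed with other cell filters, without high-scoring doublets, with other totals, centring and averaging, at resolution 0.5, with each library clustered on its own, after thinning, with other count minimums and without the cluster rich in immediate early genes. Alternatives chosen after seeing the data left out the red cell-like class or *Hlf*, used single named clusters, or took the median of the members. That median had a value in 10 classes for the *Dbp* arm, 9 for the *Arntl* arm and 8 for the odds. Over 13 alternatives the mean log2 ratio of the *Dbp* arm lay between 0.74 and 0.85, and the mean log2 odds ratio between 0.77 and 0.90. Over 12, the mean of the *Arntl* arm lay between -0.09 and 0.02, within its interval. The count of *Arntl* arm pairs at least 2-fold lower, 2 in the main analysis, was 4 with each library clustered on its own and 1 over single clusters; the cause was not tested. Of 535 values of single *Dbp* arm genes in a class over the alternatives not added later, 532 stayed above 0 on the log2 scale, and 518 stayed inside the interval of the main value. Of 171 *Arntl* arm values, 169 did. No paired analysis was possible because each condition had 1 mouse. Depth limits *Npas2* most, with fewer than 50 UMIs in 7 of 11 classes. One mouse per condition, with the hour not given and a difference in *Xist*, limits every comparison to these libraries.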
